A study of Mus musculus with 18 samples.

Results

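Cultured mouse lung cells given an agonist of the receptor Fzd5 were compared with the same kind of cells given Wnt. Members were chosen by label only: the 3 libraries labelled with the FZD5 agonist and the 3 labelled with Wnt, 6 of the 18 libraries of the series. Labels give the cells as alveolar type 2 and the prior culture as 19 days in CHIR99201 (spelled so there), which the series describes as an agonist of the Wnt pathway. The compound was then withdrawn and replaced by Wnt or by the Fzd5 agonist, with treatments of 8 to 12 h. Both groups also received LGK974, an inhibitor of porcupine, the acyltransferase that Wnt ligands need in order to be secreted. One more group of 3 libraries, taken 48 h after CHIR99201 withdrawal and also under LGK974, served as a comparison without added ligand. The labels list no withdrawal time for the Wnt and agonist groups. In comparisons with the withdrawal group, added ligand and time since withdrawal therefore cannot be told apart. The labels do not name the Wnt protein, the molecular form of the agonist, either concentration, or the mouse strain, age, sex or genotype. Whether the 3 replicates of a group came from different cultures or mice is not stated either; if they did not, the p-values reflect technical spread alone.

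Alveolar type 2 cells make surfactant and act as progenitors of the thin alveolar type 1 cells that line the gas exchange surface. Canonical Wnt signalling begins when a Wnt ligand joins a Frizzled receptor (Fzd) to the co-receptors Lrp5 or Lrp6, which stops the Axin and Apc destruction complex from degrading beta-catenin. Beta-catenin then acts with TCF/LEF factors on target genes, among them the feedback inhibitors Axin2, Rnf43, Znrf3, Nkd1 and Notum. In the lung, Wnt activity is known for maintaining alveolar type 2 cells. A natural Wnt ligand can bind several Frizzled receptors, and a Frizzled-selective agonist is meant to engage fewer. Which receptors the agonist used here engaged was not tested.

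RNA was sequenced to between 35005505 and 52030066 gene counts per library, and 20449 to 21395 genes had at least 1 count. The median correlation of each of the 6 libraries with all others was 0.980 to 0.982, and mitochondrially encoded genes took 0.442% to 0.659% of counts. Sftpc, which encodes surfactant protein C and defines alveolar type 2 cells, took 3.95% to 5.63% of all counts. All 26 alveolar type 2 markers were detected. Marker lists of other cells were partly at 0 counts and partly expressed. Of 12 basal markers 2 (Trp63 and Krt5) had no count in any of the 6 libraries and 9 were under 1 CPM, where CPM is counts scaled to library size, and the list summed to 1874 to 2010 CPM with Wnt and 1549 to 1913 CPM with the agonist. Of 20 haematopoietic markers 11 (Adgre1 and Cd52 among them) were at 0 and 18 were under 1 CPM. That list summed to 1436 to 1615 and 1385 to 1869 CPM. The haematopoietic list shares Lyz2 with the alveolar type 2 list, and the basal list shares Pdpn with the alveolar type 1 list. Of 18 endothelial markers 8 (Cdh5 and Kdr among them) were at 0 and 15 under 1 CPM, with sums of 337 to 368 and 368 to 542 CPM. Of 18 mesenchymal markers 8 (Col3a1 and Pdgfra among them) were at 0 and 17 under 1 CPM, with sums of 6.24 to 9.66 and 6.82 to 12.4 CPM. The part of other cells in the differences below was not tested. Markers of alveolar type 1 cells were present (summed to 13190 to 13510 CPM with Wnt and 11100 to 15250 CPM with the agonist). In such bulk libraries, fewer cells of a type and less RNA per cell cannot be told apart.

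Of 15303 genes tested with edgeR's quasi-likelihood test, 1998 (13.1%) passed a Benjamini-Hochberg adjusted p of 0.05. With the FZD5 agonist 1033 (6.75%) were higher than with Wnt and 965 (6.31%) were lower. Most differences were small: the median size among the called genes was 0.55 on the log2 scale, 1089 differed by less than 1.5-fold, and 210 rose and 136 fell by more than 2-fold. The 3 agonist libraries did not overlap the 3 Wnt libraries in 5239 genes (34.2%), which is the background for each statement about overlap below. The number of calls depended on the libraries used. It was 550 without Wnt library 3, 1138 without Wnt library 2, 1145 without Wnt library 1, 1191 without agonist library 2, 1045 without agonist library 3 and 2775 without agonist library 1. In a fit of all 18 libraries, edgeR called 0 of 16497 genes, with 413 at an unadjusted p under 0.05, and DESeq2 called 35, all 35 of them among the 1998. The fit of 14 libraries, without those that stood apart from the rest and belong to other groups, called 2903 genes, of which 1958 were among the 1998.

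**Figure D1:**
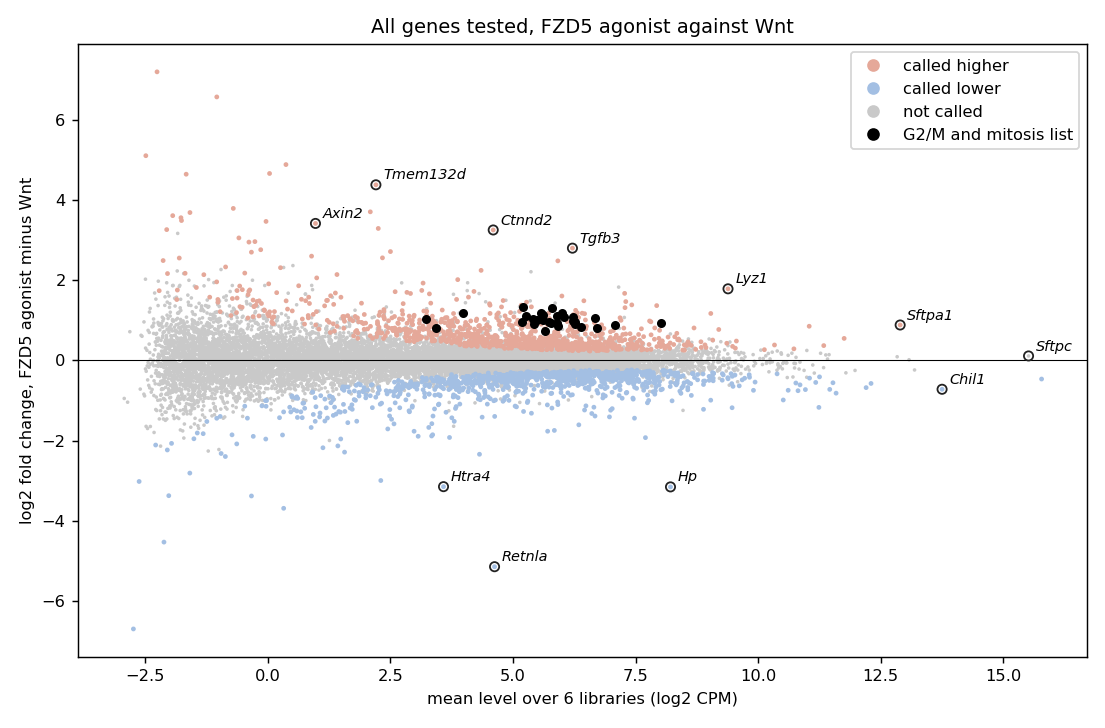
Log2 fold change (FZD5 agonist minus Wnt, vertical axis) against mean level over the 6 libraries (log2 CPM, horizontal axis) for the 15303 genes tested. Red points are the 1033 genes called higher, blue points the 965 called lower, grey points were not called, black points are the 30 genes of the G2/M and mitosis list, and circles mark genes described in the text.

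The gene with the steepest rise was Tmem132d (chr5:127781630-128433077, GRCm38), which encodes a transmembrane protein. Its level was 0.771, 0.314 and 0.192 CPM in Wnt libraries 1 to 3 and 12.2, 6.06 and 8.20 CPM in agonist libraries 1 to 3 (log2 fold change 4.37 ± 0.458 SE, adjusted p = 0.00151). Its relative Tmem132c rose from 1.48 ± 0.594 to 8.65 ± 1.68 CPM (SD, n = 3), while Tmem132a of the same family, named after its values were seen, fell from 27.5 ± 3.77 to 20.6 ± 1.36 CPM (adjusted p = 0.0447). Ctnnd2 (chr15:30172593-31029341) encodes delta-catenin, a protein of adherens junctions in the p120-catenin family. It stood at 5.08, 4.07 and 4.70 CPM with Wnt and at 49.3, 45.2 and 37.0 CPM with the agonist, a 9.51-fold rise with the smallest adjusted p of any gene that rose (8.09e-06). Each agonist library lay far above each Wnt library for Ctnnd2 and Tmem132d.

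Other steep rises included secreted and surface proteins. Sema5a, a semaphorin guidance cue, rose 9.76-fold (0.895 ± 0.413 to 8.65 ± 1.26 CPM). Tgfb3, a ligand of the TGF beta receptors, rose 6.94-fold, from 21.6, 16.6 and 17.9 CPM with Wnt to 175.9, 101.7 and 111.5 CPM with the agonist. Podxl, the sialomucin podocalyxin, rose 6.55-fold, and Klhl29, a Kelch-like protein, 3.80-fold. Lyz1, a lysozyme gene that type 2 cells express, rose from 408, 219.5 and 276 CPM to 987, 988 and 1133 CPM, and reads shared with its near-identical copy Lyz2 make its level uncertain. All of these kept their calls when any 1 of the 6 libraries was left out.

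4 further steep rises rested more on single libraries. Tinag, a basement membrane glycoprotein, was at 17.0 CPM in agonist library 1 but at 3.04 and 3.73 CPM in the other two, against 0.432 to 0.892 CPM with Wnt. Adm, the vasodilator peptide adrenomedullin, ran from 40.6 to 159.5 CPM among agonist libraries and from 13.3 to 28.1 CPM among Wnt libraries. Nr1d1, the clock repressor REV-ERB alpha, ran from 17.5 to 56.6 against 5.85 to 8.80 CPM. Mrc2, an endocytic collagen receptor, ran from 14.4 to 33.8 against 3.21 to 7.86 CPM. Each of the 4 lost its call in at least 3 of the 6 omissions of a single library. The highest adjusted p was 0.167 for Tinag, 0.177 for Adm and 0.14 for Nr1d1, each without Wnt library 3, and 0.0918 for Mrc2 without Wnt library 1.

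The deepest fall was in Retnla (chr16:48842551-48844461), which encodes the secreted protein resistin-like alpha. It was at 29.5, 44.7 and 69.7 CPM with Wnt and at 1.46, 1.21 and 1.43 CPM with the agonist (35.2-fold lower, adjusted p = 0.000861). Hp (chr8:109575128-109579172), the haemoglobin-binding plasma protein haptoglobin, fell from 458, 507 and 634 CPM to 59.8, 54.2 and 66.1 CPM (8.88-fold, adjusted p = 8.09e-06). Both groups of Hp values were tight and lay far apart. Htra4, a secreted serine protease, fell 8.85-fold, and Chst4, a sulfotransferase of the Golgi, 7.96-fold.

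The remaining steep falls included enzymes, transporters and secreted proteins. Frrs1, a ferric reductase, went from 33.3 ± 5.90 to 6.57 ± 1.40 CPM, and Fbp1, the fructose bisphosphatase of gluconeogenesis, from 329.5 ± 62.2 to 86.8 ± 20.1 CPM. Abcc8, the regulatory subunit of ATP-sensitive potassium channels, fell 3.71-fold. Dmkn, the secreted protein dermokine, fell 3.40-fold, C2cd4b 3.35-fold, and Bmp3, a BMP family ligand, 3.61-fold. Mfsd2a, a transporter of lysophosphatidylcholine, and Mme, the membrane peptidase neprilysin, also fell (3.79-fold and 3.40-fold), but Mfsd2a was called in 4 and Mme in 2 of the 6 omissions, and without Wnt library 3 their adjusted p was 0.0685 and 0.117.

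**Figure D2:**
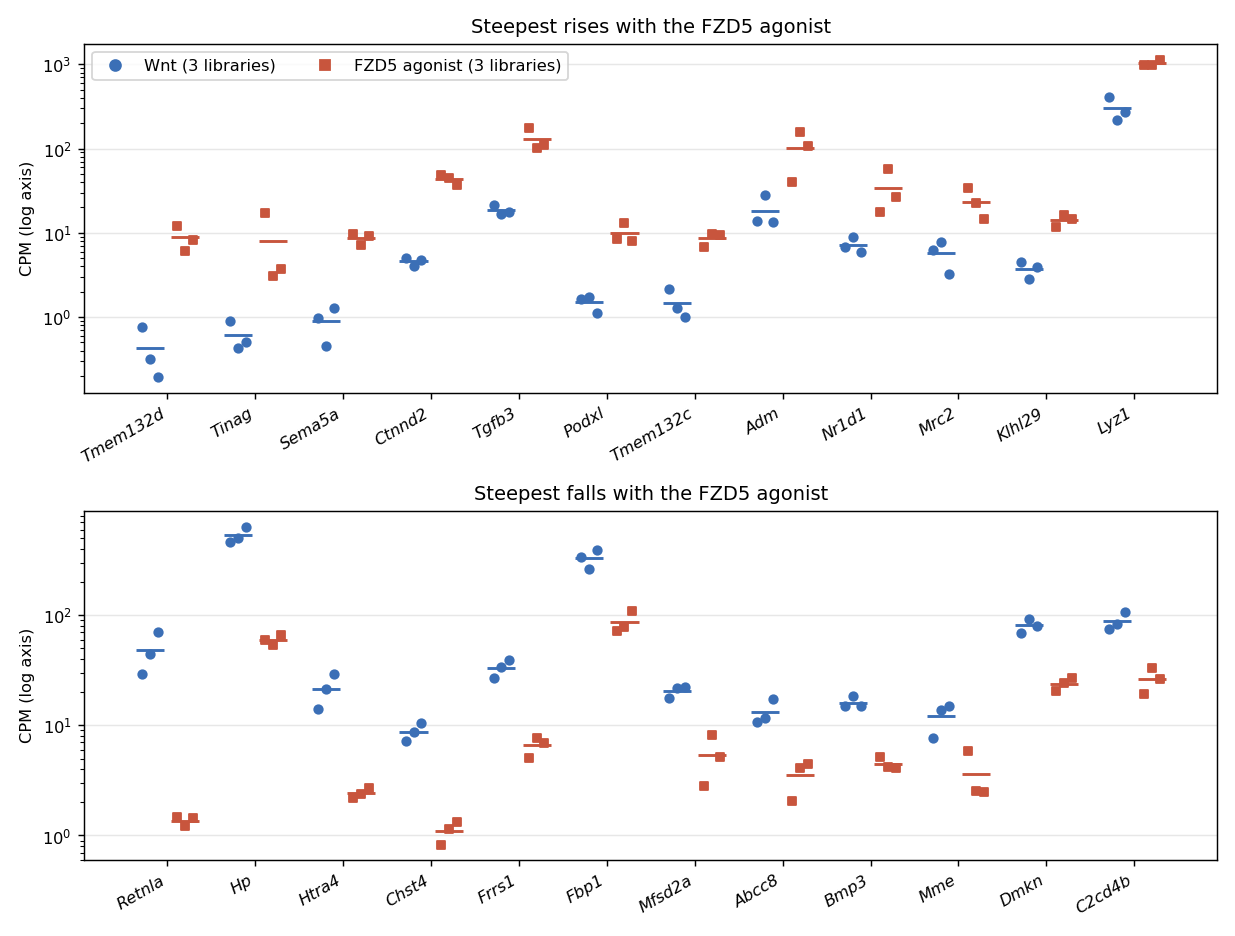
Level in each library (CPM, log axis) of the 12 called genes with the steepest rise (top) and the 12 with the steepest fall (bottom); blue circles are the 3 Wnt libraries, red squares the 3 FZD5 agonist libraries, and bars are group means. The steepest rise is in Tmem132d and the deepest fall in Retnla; every gene was chosen by a rule that requires groups that do not overlap.

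Target genes of canonical Wnt signalling moved in both directions. Of 29 listed targets 22 were tested, and 5 were called higher and 5 lower, beside 6.75% and 6.31% of all genes. The median of the 22 was 0.24, beside 0.01 over all genes tested. Axin2 (chr11:108920349-108950783), the feedback scaffold of the destruction complex, was at 0.386, 0.373 and 0.240 CPM with Wnt (16, 19 and 10 counts) and at 5.0, 2.85 and 2.94 CPM with the agonist (181, 137 and 111 counts). The rise was 10.6-fold (log2 fold change 3.41 ± 0.324 SE, adjusted p = 0.000559), with a low absolute level in both groups. Sox9, a transcription factor expressed in progenitors of the developing distal lung, rose from 0.521 ± 0.197 to 3.20 ± 1.10 CPM. Tcf7, a nuclear partner of beta-catenin, rose from 0.830 ± 0.339 to 2.39 ± 0.396 CPM.

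The 2 ubiquitin ligases that remove Frizzled receptors from the membrane also rose. Znrf3 was at 11.2, 8.43 and 8.15 CPM with Wnt and at 21.5, 14.2 and 16.4 CPM with the agonist (1.87-fold), and Rnf43 at 36.2, 45.1 and 42.0 against 57.9, 57.6 and 54.9 CPM (1.38-fold). Of the 5 rises, those of Axin2 and Sox9 were called in all 6 omissions of a library, Rnf43 in 5, Znrf3 and Tcf7 in 4, and without Wnt library 3 the last 3 had adjusted p = 0.0631, 0.0722 and 0.0558.

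Among the targets that fell, Bambi, a decoy receptor for TGF beta family ligands, went from 30.6, 29.6 and 31.8 CPM to 14.2, 14.6 and 18.6 CPM (adjusted p = 0.00147). Nkd1, an antagonist that binds Dishevelled, was at 48.9, 81.0 and 79.8 CPM with Wnt and at 46.3, 38.6 and 33.7 CPM with the agonist. Its Wnt library 1 lay close to agonist library 1, its adjusted p was 0.0423, and the call held in only 1 of the 6 omissions. The other 3 falls, named after their values were seen, were in Trib2, a pseudokinase (45.4 ± 3.96 to 20.6 ± 6.81 CPM), Ccnd1, which encodes cyclin D1 (136.6 ± 17.5 to 96.7 ± 11.4 CPM), and Cd44, a hyaluronan receptor (126.9 ± 8.52 to 96.9 ± 7.10 CPM). Without Wnt library 3, 2 targets were called higher and 1 lower.

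Several well-known targets did not pass. Lgr5, a receptor for R-spondins, was at 0, 0.216 and 0.312 CPM with Wnt (0, 11 and 13 counts) and at 0.497, 1.13 and 0.952 CPM with the agonist. Its groups did not overlap and its adjusted p was 0.0696. Sp5, a transcriptional repressor, was at 81.1 ± 2.87 and 98.5 ± 11.9 CPM (adjusted p = 0.0776), and Myc, named after its values were seen, at 22.5 ± 3.07 and 34.9 ± 9.07 CPM (adjusted p = 0.0723). Notum, a secreted enzyme that inactivates Wnt ligands, was at 2.51 CPM in agonist library 1 and between 0.354 and 0.647 CPM in the other 5 libraries. Lef1 had no count in any of the 6 libraries.

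**Figure D3:**
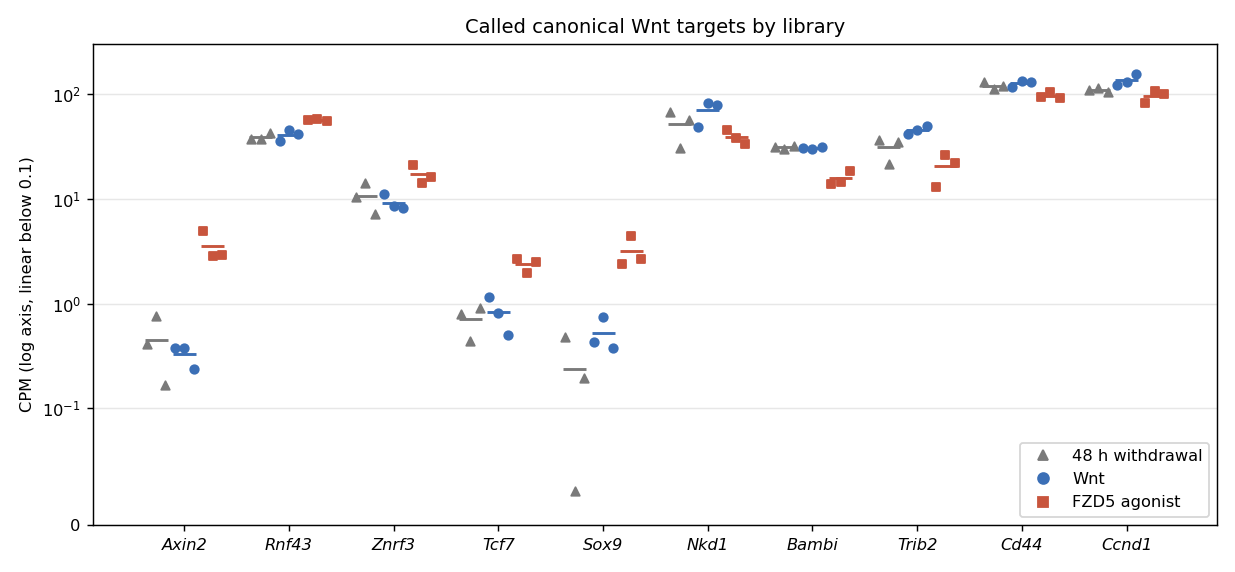
Level in each library (CPM, on a log axis that is linear below 0.1) of the 10 canonical Wnt targets called between the FZD5 agonist and Wnt, with the 48 h withdrawal libraries beside them; grey triangles are 48 h withdrawal, blue circles Wnt, red squares the FZD5 agonist (3 libraries each), and bars are group means. In Axin2, Tcf7, Sox9, Rnf43 and Bambi the Wnt libraries lie beside the withdrawal libraries, and the agonist libraries lie apart from both. The Wnt libraries of Trib2 and Ccnd1 lie above the withdrawal libraries, and agonist libraries overlap the withdrawal range in Trib2, Ccnd1 and Nkd1.

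Receptor genes that were called were all higher with the agonist. Of 21 listed receptors and co-receptors 19 were tested, 4 were called higher (Ror1, Znrf3, Rnf43 and Fzd7) and 0 lower by edgeR, beside 6.75% and 6.31% of all genes, and 10 of 19 had groups that did not overlap. Over the omissions of 1 library the number higher ran from 1 (without Wnt library 3) to 6 (without agonist library 1). Among the Frizzled genes, the deposited RPKM values, which account for gene length, put Fzd1 highest with Wnt (32.0 ± 4.73 RPKM, SD, n = 3), followed by Fzd7 (16.2 ± 1.78) and Fzd6 (13.9 ± 1.12). Fzd8 (6.72 ± 0.435) and Fzd4 (6.36 ± 0.400) came next and lay within their spread of each other. Fzd5, the receptor named by the agonist, stood at 1.28 ± 0.0739 RPKM with Wnt and 1.75 ± 0.265 with the agonist, far below Fzd1 in both groups. Fzd3 (0.822 ± 0.0323) and Fzd2 (0.813 ± 0.0928) did not differ beyond their spread, Fzd9 was at 0.226 ± 0.0950, and Fzd10 was listed at 0.

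In counts, Fzd5 was at 9.90, 10.97 and 11 CPM with Wnt and at 14.4, 15.7 and 11.6 CPM with the agonist. These values did not overlap, but the difference did not pass (log2 fold change 0.39 ± 0.135 SE, adjusted p = 0.0923). Fzd6 was at 68.7 ± 5.65 and 77.9 ± 2.97 CPM (adjusted p = 0.178), and the co-receptor Lrp6 at 69.8 ± 9.41 and 78.0 ± 4.06 CPM (adjusted p = 0.340). Fzd7 rose from 88.0 ± 9.91 to 114.0 ± 11.2 CPM, a call held in 2 of the 6 omissions. Ror1, a receptor tyrosine kinase for Wnt ligands, was at 0.892, 0.491 and 1.32 CPM and rose to 3.70, 2.17 and 2.14 CPM.

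Of 25 genes for ligands, R-spondins and secretion, 9 were expressed enough to be tested, with 1 called in each direction. Over all genes 6.75% were called higher and 6.31% lower. Wnt7b, a ligand of the lung epithelium, rose from 18.1, 16.9 and 15.3 CPM to 23.9, 33.5 and 25.8 CPM (adjusted p = 0.00955). Wnt4 fell from 29.3, 27.4 and 29.8 CPM to 23.9, 16.3 and 16.4 CPM (adjusted p = 0.0261), a call held in 1 of the 6 omissions. Neither was called without Wnt library 3. Porcn, which encodes the target of LGK974, and Wls, the carrier of Wnt proteins to the surface, were named after their values were seen and had overlapping groups (12.5 ± 1.15 against 14.8 ± 2.56 CPM, and 590 ± 11.8 against 570.4 ± 81.0 CPM). Among the 26 tested genes of the destruction complex and its transducers, Axin2, Tcf7 and Apc (1.23-fold) were higher and Tle2, a co-repressor that binds TCF factors, was lower (64.3 ± 0.942 to 48.5 ± 3.44 CPM). Of 20 tested planar cell polarity genes, Daam1, a formin acting below Dishevelled, was the only 1 called (33.9 ± 6.33 to 65.8 ± 11.5 CPM). None of the 4 tested secreted inhibitors was called by edgeR.

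Both ligand groups were also set beside 48 h of withdrawal in a fit of 9 libraries, in which the 2 comparisons share the withdrawal libraries. Time since withdrawal may differ between the groups and cannot be told apart from the ligand. For Wnt minus withdrawal, edgeR called 0 of 15660 genes, with 1140 at an unadjusted p under 0.05 and a smallest adjusted p of 0.680, and DESeq2 called 5. For the FZD5 agonist minus withdrawal edgeR called 2486 (15.9%), of which 1252 (7.99%) were higher and 1234 (7.88%) lower. Axin2 was at 0.413, 0.766 and 0.167 CPM after withdrawal, so the log2 difference was -0.41 ± 0.481 SE for Wnt and 2.99 ± 0.415 SE for the agonist. For Ctnnd2 the differences were 0.14 and 3.38, for Tgfb3 -0.37 and 2.42, for Hp -0.04 and -3.19, and for Bmp3 -0.26 and -2.12. Such steep genes were chosen through the same agonist libraries, so their large agonist differences here are not separate support. Retnla was at 31.6, 16.2 and 27.9 CPM after withdrawal, with differences of 0.92 for Wnt (adjusted p = 0.680) and -4.23 for the agonist. Nkd1 (adjusted p = 0.467), Il33 (0.0761) and Znrf3 (0.0721) were among those called against Wnt that were not called between the agonist and withdrawal.

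Genes of mitosis rose together with the agonist. All 30 genes of a G2/M and mitosis list were tested, all 30 were called higher, and in none did the groups overlap; 6.75% of all genes were called higher and 34.2% had groups that did not overlap. Their log2 fold changes lay between 0.72 (Aurkb) and 1.32 (Cenpe), with a median of 0.99 beside 0.01 for all genes. Mki67, the proliferation marker Ki-67, was at 66.2, 63.8 and 67.7 CPM with Wnt and at 120.4, 162 and 130.3 CPM with the agonist. Ccnb2, a B-type cyclin that drives entry into mitosis, was at 42.5, 34.2 and 36.4 CPM and rose to 76.3, 86.2 and 80.9 CPM. Hmmr, a spindle-associated hyaluronan receptor, rose from 36.3, 26.9 and 33.6 to 72.6, 85.5 and 79.0 CPM. Every agonist library stood above every Wnt library in these 3 genes.

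Mad2l1, of the spindle checkpoint (29.95 ± 1.36 to 56.5 ± 2.56 CPM), and Nusap1, which bundles spindle microtubules (24.7 ± 1.80 to 47.8 ± 3.47 CPM), were among the 4 members with the smallest p, with Ccnb2 and Hmmr. The kinase Cdk1 (60.1 ± 8.87 to 107.5 ± 6.15 CPM) and Cenpe, a kinetochore motor (21.0 ± 3.09 to 52.4 ± 9.42 CPM), were named after their values were seen. Over the omissions of 1 library, 28 to 30 of the 30 remained called, with 28 without Wnt library 3, and 13 exceeded a fold of 1.5 in a test against that fold. Against 48 h withdrawal, the median of the list was 1.24 with the agonist (30 of 30 called higher) and 0.22 with Wnt (0 called by edgeR). The same agonist libraries enter both comparisons, so the second is not separate support.

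Fewer genes of the G1/S transition and DNA replication were called. Of 30 tested, 6 were called higher and 0 lower by edgeR, beside 6.75% of all genes called higher, with a median of 0.39. The groups did not overlap in 11 of the 30, a share close to the 34.2% of all genes. The 4 with the smallest p were Rrm1, the large subunit of ribonucleotide reductase (118.1 ± 17.1 to 174.4 ± 12.1 CPM), Cdt1, a licensing factor (13.5 ± 2.75 to 21.4 ± 0.339 CPM), Mcm10, a replication initiation factor (1.57-fold), and Chaf1a, a histone chaperone subunit (1.59-fold). Without Wnt library 3, 0 of the 30 were called and without agonist library 1, 14 were called.

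The promoters of 4 mitotic genes, Ccnb2, Hmmr, Mki67 and Cdk1, are printed to show the letters they hold. The 4 were picked by hand and do not stand for the list. Mad2l1 and Nusap1, which had smaller p than Mki67 and Cdk1, hold neither motif described next. NF-Y binds the CCAAT box, and repressor and activator complexes of the cell cycle bind the CHR element, both known from promoters of mitotic genes. Each line gives the 250 bases upstream of the RefSeq start on GRCm38.p6, read 5′ to 3′ on the gene's strand, and capitals mark the letters of the CCAAT box and of the CHR, which was searched as TTTGAA, on either strand. Neither motif contains the other.

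Ccnb2 (chr9:70421555-70421804, minus strand): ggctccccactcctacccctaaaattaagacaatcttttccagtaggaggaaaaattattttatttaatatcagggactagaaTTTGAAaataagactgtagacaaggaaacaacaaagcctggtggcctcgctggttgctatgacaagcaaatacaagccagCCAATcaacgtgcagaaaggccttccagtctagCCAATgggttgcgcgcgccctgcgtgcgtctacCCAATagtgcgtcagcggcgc

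Hmmr (chr11:40733438-40733687, minus strand): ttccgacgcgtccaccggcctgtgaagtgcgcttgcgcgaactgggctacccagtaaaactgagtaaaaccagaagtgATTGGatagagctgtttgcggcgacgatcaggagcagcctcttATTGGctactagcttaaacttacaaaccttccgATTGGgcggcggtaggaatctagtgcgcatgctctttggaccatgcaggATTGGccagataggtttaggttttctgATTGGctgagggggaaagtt

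Mki67 (chr7:135716380-135716629, minus strand): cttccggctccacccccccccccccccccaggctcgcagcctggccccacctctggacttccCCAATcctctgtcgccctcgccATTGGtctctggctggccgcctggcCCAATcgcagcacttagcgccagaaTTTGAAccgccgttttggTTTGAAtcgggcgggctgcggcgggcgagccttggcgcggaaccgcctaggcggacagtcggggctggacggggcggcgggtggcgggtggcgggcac

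Cdk1 (chr10:69352913-69353162, minus strand): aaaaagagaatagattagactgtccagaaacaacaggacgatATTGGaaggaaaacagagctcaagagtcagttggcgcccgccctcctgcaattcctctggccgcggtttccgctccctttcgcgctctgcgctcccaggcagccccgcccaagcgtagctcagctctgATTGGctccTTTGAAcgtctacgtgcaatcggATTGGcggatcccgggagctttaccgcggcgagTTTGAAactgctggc

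Ccnb2 has CCAAT boxes at -87, -54 and -21 from the start and a CHR at -167, Hmmr has 5 CCAAT boxes between -172 and -16 and no CHR, Mki67 has 3 and 2, and Cdk1 has 3 and 2. RefSeq promoters were at hand for 25 of the 30 genes. CCAAT was present in 20 of the 25 (80%), beside 34.3% of all 27025 promoters in the table and 36.4% of the 10325 tested genes with a promoter. TTTGAA was present in 7 (28%), beside 16.2% of all promoters. Over all genes called higher with the agonist that had a promoter, 43.1% of 798 held CCAAT and 13.7% held TTTGAA, and over those called lower 38.6% and 9.02% of 721. The letters CTTTGAT on either strand, a core that TCF/LEF factors bind, were in 1 of the 20 Wnt target promoters in the table, beside 3.21% of all promoters. These matches describe the letters and not binding.

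Genes of amino acid supply and protein synthesis were also among the calls. ATF4 is a transcription factor whose translation rises when amino acids run short or the endoplasmic reticulum is stressed, and it drives genes of amino acid synthesis and import. Of 27 listed genes 26 were tested, 11 were called higher and 1 lower, with a median of 0.79, beside 6.75%, 6.31% and 0.01 for all genes. Psat1, of serine synthesis, was at 53.1, 45.9 and 41.7 CPM with Wnt and at 83.4, 113.8 and 113.2 CPM with the agonist. Phgdh, the first enzyme of that pathway, rose from 3.61, 3.01 and 2.71 to 5.94, 7.58 and 8.17 CPM. Shmt2, which passes one-carbon units from serine to folate in mitochondria, rose from 54.0 ± 4.08 to 93.3 ± 12.9 CPM. In all 3 the agonist libraries stood above the Wnt libraries, with agonist library 1 the lowest of the agonist libraries.

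Atf3, a stress-induced transcription factor, rose from 12.6 ± 2.04 to 33.4 ± 12.1 CPM, and its agonist libraries spread from 21.4 to 45.6 CPM. Atf4 itself, named after its values were seen, was at 81.4, 84.9 and 76.5 CPM with Wnt and at 100.5, 161.1 and 134.5 CPM with the agonist (adjusted p = 0.0199). The largest fitted difference of the list was in Slc7a11, the cystine importer, which did not pass (14.7 ± 7.79 against 67.9 ± 35.2 CPM, adjusted p = 0.0512). Sesn2, a stress-induced regulator that restrains mTORC1, was the member that fell (106.4 ± 7.38 to 74.8 ± 15.5 CPM). The number called higher ran from 3 (without Wnt library 1, Wnt library 3 or agonist library 3) to 17 (without agonist library 1); Psat1, Shmt2 and Phgdh were called in all 6. The promoter of Asns, which encodes asparagine synthetase (adjusted p = 0.0335, named after its values were seen), shows a composite element of the kind ATF4 binds with C/EBP partners, searched as TGATGNAAN on either strand and shown in capitals.

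Asns (chr6:7693210-7693459, minus strand): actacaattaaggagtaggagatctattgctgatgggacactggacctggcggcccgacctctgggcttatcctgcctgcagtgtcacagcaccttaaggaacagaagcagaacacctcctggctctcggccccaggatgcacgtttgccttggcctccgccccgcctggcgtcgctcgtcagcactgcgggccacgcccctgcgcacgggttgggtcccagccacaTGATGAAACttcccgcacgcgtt

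That element, at -23 to -15 in Asns, was in 7 of the 23 list genes with a RefSeq promoter (30.4%), beside 3.52% of all promoters and 1.84% of the tested genes with one. The list was written around ATF4, so this share describes the list and not the genes that rose. Among members called higher, the element was in 3 of the 10 with a promoter: Asns, Atf3 and Nupr1. Chac1, Pck2 and Slc7a11 held it and were not called, Fgf21 held it and was not tested, and Psat1, Phgdh and Shmt2 lacked it. A match is again a description of letters.

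Of the 21 cytosolic aminoacyl-tRNA synthetases, the enzymes that charge tRNAs with amino acids, 11 were called higher and 0 lower by edgeR. Over all genes 6.75% were called higher and 6.31% lower. The median of the 21 was 0.38, beside 0.01 over all genes. Tars, for threonine, rose from 84.8, 86.4 and 76.0 CPM to 119.4, 149.9 and 130.6 CPM. Nars, Eprs and Yars, for asparagine, for glutamate and proline, and for tyrosine, rose 1.56-fold, 1.56-fold and 1.54-fold. The count ran from 3 (without Wnt library 3) to 14 (without agonist library 1). Of 34 genes of ribosome biogenesis and the Myc family, 11 were higher and 1 lower (Polr1c, named after its values were seen), with a median of 0.28, beside 6.75% and 6.31% of all genes. The number higher ran from 4 (without Wnt library 3) to 17 (without agonist library 1). Mycn, a Myc family transcription factor, was at 59.6, 46.9 and 50.2 CPM and rose to 113.5, 116.8 and 99.0 CPM, and its call held in all 6 omissions. Nop58, of box C/D nucleolar particles, rose 1.66-fold, and Ncl, which encodes nucleolin, 1.35-fold. The 27 cytosolic ribosomal protein genes had a median of -0.13 with 0 called by edgeR, and 22 of the 27 were fitted below 0. Of 22 chaperones and related genes of the endoplasmic reticulum 5 were called higher, beside 6.75% of all genes. The other 17 were not called, and the median was 0.10. Among the 5 were Hspa5, which encodes BiP (1119 ± 30.3 to 1460 ± 65.0 CPM), and Hsp90b1 (628 ± 61.1 to 877.3 ± 61.1 CPM). Without Wnt library 3, 0 were called.

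**Figure D4:**
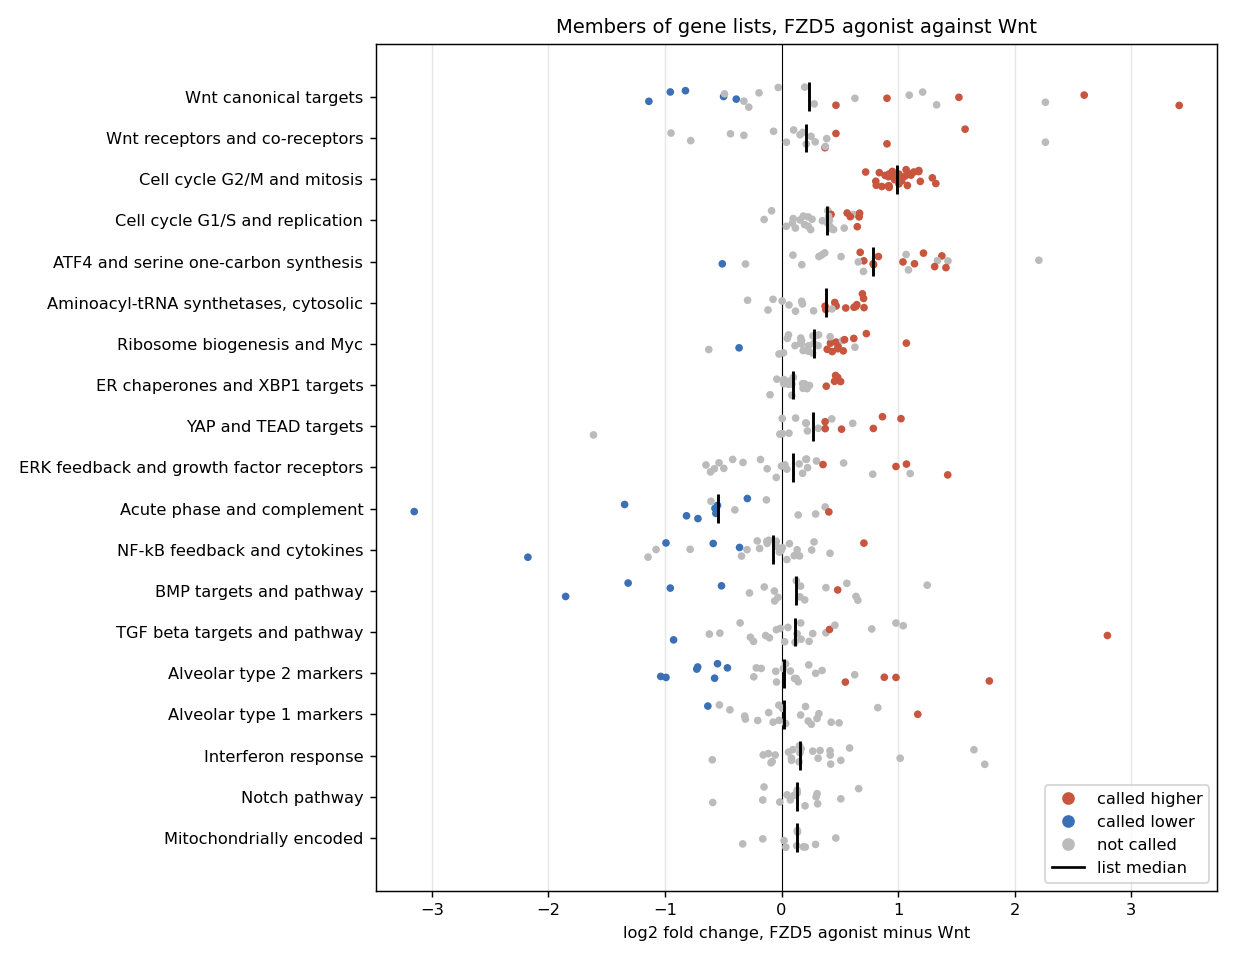
Log2 fold change (FZD5 agonist minus Wnt, horizontal axis) of every tested member of 19 gene lists (rows); red points were called higher, blue points lower, grey points were not called, black ticks are list medians, and vertical scatter within a row only separates points. The 30 members of the G2/M and mitosis list sit between 0.72 and 1.32, and the canonical Wnt targets spread to both sides of 0.

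Growth factor pathways changed gene by gene. Of 26 tested genes of ERK feedback and growth factor receptors, 4 were called higher and 0 lower by edgeR. Over all genes 6.75% were called higher and 6.31% lower. The list median was 0.10, beside 0.01 over all genes. Etv5, an ETS factor downstream of FGF receptors that maintains alveolar type 2 cells, was at 150.3, 149.4 and 145.3 CPM with Wnt and at 262, 314 and 303 CPM with the agonist (log2 fold change 0.98 ± 0.0837 SE, adjusted p = 0.000316). Egfr, the EGF receptor, rose from 4.60, 7.04 and 4.60 CPM to 18.4, 11.2 and 14.3 CPM. Its ligand Hbegf (1.28-fold) and the ERK phosphatase Dusp5 (2.10-fold) were called, each in only 1 of the 6 omissions.

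Targets of YAP and TEAD, the transcriptional arm of the Hippo pathway, were called higher in 6 of 18 cases, beside 6.75% of all genes. Their median was 0.27, beside 0.01 over all genes. Amotl2, an angiomotin that restrains YAP, rose from 136.4, 154.2 and 142 CPM to 254.8, 261 and 231 CPM. Crim1 (2.04-fold), Ptpn14 (1.82-fold) and Ajuba (1.43-fold) rose too, and without Wnt library 3, 3 members were called. In the TGF beta list, Tgfb3 and the signal transducer Smad3 (1.33-fold) were higher. Pmepa1, a target gene that dampens the pathway, was lower (27.7, 24.6 and 30.9 to 12.9, 15.4 and 15.4 CPM). Of the 25 tested, 22 were not called, beside 13.1% of all genes called in either direction.

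In the BMP list 4 of 19 genes were lower and 1 was higher, beside 6.31% and 6.75% of all genes. The median was 0.13, beside 0.01 over all genes. Beside Bmp3 and Bambi, the falls were in Id1, an immediate target of BMP receptors (613.9, 486 and 571.3 to 341.3, 408 and 419.7 CPM), and in Fstl1, a secreted follistatin-like protein. Fstl1 was at 35.6, 75.4 and 66.8 CPM with Wnt and at 28.0, 24.8 and 18.7 CPM with the agonist, and its call held in 1 of 6 omissions. Bmp2, the member that rose, was named after its values were seen (6.20 to 8.66 CPM).

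The alveolar type 2 markers did not move as a block. Of 26 tested, 4 were called higher and 7 lower, beside 6.75% and 6.31% of all genes. The median was 0.03, beside 0.01 over all genes. Sftpc was at 50760, 41230 and 42800 CPM with Wnt and at 54430, 39010 and 52150 CPM with the agonist. These ranges overlapped and the difference did not pass (log2 fold change 0.11 ± 0.154 SE, adjusted p = 0.689). Higher were Lyz1, Etv5, Sftpa1, which encodes surfactant protein A, and Fasn, the fatty acid synthase, the last 2 named after their values were seen. Sftpa1 went from 6869, 4379 and 4821 to 8702, 9056 and 11860 CPM (adjusted p = 0.0170).

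Chil1, a secreted chitinase-like protein, had the smallest p of the 7 that fell and went from 16860, 17180 and 17340 CPM to 10350, 10200 and 10680 CPM (adjusted p = 0.00215). Napsa, the protease that processes surfactant protein B, fell from 2236, 2580 and 2646 to 1210, 1641 and 1659 CPM. Il33, an alarmin cytokine, fell from 576, 736 and 778 to 274, 428 and 350 CPM. S100g, Sftpb, Lcn2 and Scd1, named after their values were seen, fell 2.05-fold, 1.49-fold, 1.46-fold and 1.38-fold. Without Wnt library 3 the counts were 2 higher and 2 lower.

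Alveolar type 1 markers gave 1 call in each direction among 22 tested, beside 6.75% higher and 6.31% lower over all genes. Their median was 0.02. Akap5, a kinase anchoring protein, rose from 310.4, 355 and 302.2 to 1002, 611.3 and 563.5 CPM, and Cavin2, a caveolar coat protein, fell from 145, 194 and 190.1 to 123, 112.3 and 107 CPM. Ager and Hopx, which mark type 1 cells, were not called. Ager was at 2535, 2433 and 2563 CPM with Wnt and at 2996, 1438 and 1614 CPM with the agonist, and Hopx at 234, 260.5 and 248.5 against 231, 136 and 147 CPM. Agonist library 1 lay apart from the other 2 agonist libraries in both genes. Without it, 8 type 1 markers were called lower in place of 1; what sets library 1 apart was not tested.

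Genes of lipid synthesis gave calls in both directions, as did all genes tested (6.75% higher and 6.31% lower). Of 23 tested for fatty acids and phospholipids, 3 were higher and 3 lower: Acsl3 (1.36-fold) and Pcyt1a (1.35-fold), which activate fatty acids and make phosphatidylcholine precursors, rose with Fasn, while Elovl1, a fatty acid elongase (3927 ± 178.3 to 2231 ± 566 CPM), and Srebf1, which encodes the lipogenic factor SREBP1, fell with Scd1. Of 25 cholesterol genes Cyp51 (1.23-fold) and Stard4 (1.29-fold) were higher and Pmvk, a mevalonate pathway kinase, was lower (205, 184 and 202 to 84.1, 108 and 115 CPM). When Wnt library 3 was left out, 0 fatty acid and phospholipid genes were called in either direction, and 0 cholesterol genes higher and 1 lower. Among 23 tested lung epithelial transcription factors, Foxp2 (1.56-fold), Sox9, Etv5 and Klf5 were higher, and Foxa2 (1.21-fold) and Cebpa were lower. Klf5 and Cebpa were named after their values were seen.

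The acute phase and complement genes listed encode plasma and airway proteins that rise with inflammation. Of 15 tested of 24 listed, 8 were called lower and 1 higher, with a median of -0.55 beside 0.01 over all genes and 6.31% of all genes called lower. Hp gave the largest fall. C3, the central complement component, fell from 357, 377 and 405 to 273, 257 and 236 CPM. Itih4 fell from 117.7, 138 and 151 to 87.0, 78.5 and 65.7 CPM, and Orm1, which encodes orosomucoid, from 2.73 ± 0.583 to 1.08 ± 0.233 CPM. Clu, the secreted chaperone clusterin, fell 1.48-fold. Cfb, complement factor B, rose from 21.3 to 28.2 CPM and was named after its values were seen. The count called lower was 3 without Wnt library 3.

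Markers of club and other secretory cells share Hp with that list and also fell in sum, from 1061 to 1319 CPM with Wnt to between 326 and 589 CPM with the agonist. Hp is counted in that sum and went by itself from a mean of 533.1 to 60.0 CPM. 2 of 8 tested were called lower, beside 6.31% of all genes: Hp and Muc5b, a secreted airway mucin (13.1, 18 and 28.04 to 4.91, 9.25 and 7.67 CPM). Of the 16 listed, 10 were under 1 CPM and Reg3g had no count. The part of such cells in the fall of Hp was not tested.

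Cytokine and antigen presentation genes were mixed. In the NF-kB and cytokine list 4 of 28 were lower and 1 higher, beside 6.31% and 6.75% of all genes. Cxcl17, a mucosal chemokine-like protein, fell from 3.42, 3.64 and 3.69 to 0.607, 1 and 0.741 CPM, and Relb, an NF-kB subunit, fell 1.5-fold, while Nfkbiz, a nuclear regulator of NF-kB, rose from 45.2, 43.2 and 42.9 to 78.4, 67.4 and 68.8 CPM. Of 20 antigen presentation genes 5 were higher and 2 lower, beside 6.75% and 6.31% of all genes, and without Wnt library 3 the counts were 1 and 0. H2-D1, a classical class I gene, fell from 1013 ± 9.78 to 791 ± 16.5 CPM, Ciita, the class II activator, rose 1.37-fold, and H2-Q6 and H2-Q7 rose (3.20-fold and 2.80-fold) from levels near 1 CPM. H2-Q6 and H2-Q7 are close copies, and their split is uncertain. None of 25 interferon response genes was called by edgeR (median 0.16, 1 with groups not overlapping), nor any of 15 Notch pathway genes (0.13) or 11 mitochondrially encoded genes (0.14).

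Junction and matrix genes gave scattered calls. Of 19 tested claudin and tight junction genes, 3 were called higher and 2 lower, and 14 were not called. Of 22 tested basement membrane and matrix genes, 4 were called higher and 1 lower, and 17 were not called. Over all genes 6.75% were called higher and 6.31% lower. Tjp1, which encodes the tight junction scaffold ZO-1, rose from 96.1, 126.5 and 112.2 to 196.4, 207 and 182 CPM. The claudins moved apart, with Cldn8 2.03-fold higher and Cldn10 2.69-fold lower. The laminin chains Lamb1 (1.99-fold) and Lamc1 (1.43-fold), the integrin ligand Npnt (1.95-fold) and the integrin Itga3 (1.25-fold) were higher, and Itgb4, named after its values were seen, was lower (6.09 ± 1.98 to 2.68 ± 0.733 CPM). In the fit without Wnt library 3, 0 matrix genes were called in either direction, and Lamb1 and Itga3 were each called in 2 of the 6 omissions.

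Of 24 immediate early and heat shock genes 4 were higher and 4 lower, with 2 higher and 0 lower without Wnt library 3. Over all genes 6.75% were called higher and 6.31% lower. Klf6, a zinc-finger factor, rose from 79.2, 93.2 and 81.3 to 158, 153.3 and 129 CPM, Nr4a1, an orphan nuclear receptor, rose 1.75-fold and Hsph1, a heat shock protein, 1.34-fold. Fos, an AP-1 subunit named after its values were seen, fell from 32.6 ± 6.94 to 16.2 ± 4.64 CPM. In a list of the transitional epithelial state, S100a6 and Clu were lower and Hbegf and Plaur higher, of 18 tested. Without Wnt library 3, 0 of that list were higher and 1 was lower. Among 20 p53 targets Trp53 itself was higher (1.26-fold) and Sesn2 lower, and without Wnt library 3, 0 were called in either direction. Of 29 hypoxia and glycolysis genes 1, Adm, was called, with 0 without Wnt library 1, Wnt library 3, agonist library 2 or agonist library 3.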

How the data were processed

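RNA was isolated with an RNeasy column kit and made into TruSeq Stranded Total RNA libraries, per the labels' protocols. The deposited tables hold, per library, whole-number read counts for 52636 genes, not normalised, with a gene width and RPKM values that the authors computed. GSNAP and GRCm38 are named in the submitters' processing notes. Their versions, the annotation, the counter and its strand setting: not given in the sources used here. Genes that overlap, or lie antisense, may therefore share reads. Symbols (52403 genes) and coordinates come from GENCODE M21.

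The 6 libraries (35005505 to 52030066 counts) were fitted alone. After edgeR's filterByExpr by group 15303 genes were left, scaled by TMM and tested with robust glmQLFit and glmQLFTest (edgeR 4.0.16, R 4.3.3, no covariates), and genes under 0.05 after Benjamini-Hochberg adjustment were called. The SE was derived from the fold change and its F statistic; CPM use TMM-scaled totals and are given as mean ± SD of 3 libraries. The scripts were tested on simulated data. Libraries of a group differed by more than sampling noise (chi-square over its degrees of freedom, 13.3 to 68.0). A count of 0 allows up to 3 counts, 0.0577 to 0.0857 CPM, for counting error only.

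Genes named by rule were the 12 steepest called rises and falls with a mean of at least 4 CPM, groups that do not overlap and no provisional symbol, up to 4 called members of each of 42 lists with the smallest p, and 16 Wnt pathway and lineage genes. The members and lists were chosen with earlier results of these data known. Promoters come from RefSeq on GRCm38.p6. Alternatives were DESeq2 1.42.0, limma 3.58.1 voom, other scalings, filters, library sets and a replicate block.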

Additional observations from a re-analysis of the deposited data

How the results depend on the processing

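Of the alternatives, RLE and upper-quartile factors, no filter, 1 CPM in 3 libraries, DESeq2, the fit of 14 libraries and leaving out mitochondrial and ribosomal RNA genes gave 1974 to 2903 calls, within 1.5 times of the 1998 reported, and none of the settings called a reported gene in the opposite direction. limma voom with quality weights gave 3458 (1806 higher, 1652 lower), a test against a fold of 1.5 gave 117 (68 and 49), and all 18 libraries gave 0 (0 and 0), where edgeR had 413 genes at an unadjusted p under 0.05 and DESeq2 called 35. For voom and the 18 libraries the cause was not tested. Leaving out 1 library gave 550 to 2775 calls, 297 to 1397 higher and 253 to 1378 lower, the lowest without Wnt library 3 and the highest without agonist library 1. Of the 118 called genes named by rule, 54 were called in all 6 omissions, 118 by DESeq2, 113 over 14 libraries, 29 against a fold of 1.5 and 0 over 18 libraries. Against 48 h withdrawal, 99 named genes were called with the agonist and 0 over 18 libraries; most of these genes were chosen through the same agonist libraries, so the count supports nothing. Notum was the only named gene to change sign, to -0.009 with voom and -0.347 without agonist library 1. DESeq2 and the 18 libraries for the withdrawal comparisons, DESeq2 over 18 libraries and the list counts per alternative were chosen after seeing the data. Genes under about 1 CPM, such as Lgr5 and Notum, rest on fewer than 100 counts a library.

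The labels number replicates 1 to 3 in both groups. Deviations of same-numbered libraries correlated at 0.201, 0.316 and -0.004 over 10492 genes, and those of different-numbered libraries at -0.316 to 0.099. For numbers 1 and 2 the same-numbered libraries correlated best with each other, and for number 3 they did not. Each deviation was taken from the mean of the 3 libraries of its group, so these correlations are tied to each other. The matches for numbers 1 and 2 largely mirror each other and are not separate evidence of pairing. Whether a number marks a shared culture is not stated in the labels and was not tested. With the replicate block 2426 genes were called (1230 higher, 1196 lower), 1904 of them among the 1998. The block kept 115 of the 118 called genes named by rule and ended the calls of Nkd1 (adjusted p = 0.107), Mme (0.0965) and Fstl1 (0.0855). In the hypoxia and glycolysis list 13 genes were called higher with the block and 4 with voom, against 1 reported.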

Other observations

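Several gene families that were not lists of their own also differed between the agonist and Wnt. Some of their members, such as S100a6 and S100g, are also in the lists above and are counted again here. They were chosen after their values were seen, so the counts are descriptions. Over all genes 6.75% were called higher and 6.31% lower. The S100 calcium-binding proteins stood lower: of 8 tested, 6 were called lower and 0 higher by edgeR. S100a1 went from 102.5, 124.7 and 139.5 CPM with Wnt to 36.9, 37.8 and 45.8 CPM with the agonist (adjusted p = 0.000247), S100a16 from 60.5 to 35.6 CPM and S100a13 from 25.2 to 14.1 CPM. S100a11 (18.6 against 16.8 CPM) and S100a10 (9.15 against 6.21 CPM) were not called. All 4 tested kallikrein genes, secreted serine proteases, were lower. Klk13 went from 114.8, 166.3 and 161.9 to 41.4, 73.0 and 54.9 CPM, and Klk8 from 1.08, 1.34 and 1.44 to 0.331, 0.333 and 0.370 CPM.

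The metalloreductases Steap1 and Steap2 were higher (3.37 to 10.9 and 32.5 to 73.3 CPM), while Steap4 was not called (71.0 against 46.7 CPM). Among 18 clock genes 5 were higher (Nr1d1, Nr1d2, Ciart, Dbp and Tef). Nr1d2 went from 6.53, 7.37 and 6.85 to 14.7, 10.5 and 12.7 CPM. Arntl, which encodes the clock activator BMAL1, was at 61.1 and 60.3 CPM, and Per1, Per2 and Per3 were not called. Of 12 tubulin genes Tubb6 (83.9 to 231.4 CPM), Tubb5, Tuba1b and Tuba1c were higher. In a further set of 32 spindle and cytokinesis genes 30 were called higher, with a median of 0.92, beside 6.75% and 0.01 for all genes tested; Pttg1 (24.6 against 24.5 CPM) and Depdc1a (0.331 against 0.452 CPM) were not called.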
